A study of Homo sapiens with 132 samples.

Results

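NCI-N87 is an established gastric carcinoma line known for its amplified ERBB2 gene. In the 6 untreated libraries of this line (3 at 4 h, 3 at 24 h), 9 genes passed both the test and the fold threshold. All 9 were lower at 24 h, and 7 of them belong to the endoplasmic reticulum (ER) chaperone, heat shock or antioxidant genes. The lists of such genes were chosen with earlier results of these data known. The fit behind these calls took in all 24 NCI-N87 libraries, treated ones included, and left out the replicate number. With only the 6 libraries in the fit, the same test called no gene. With the replicate number as a block in the fit of all 24, 42 lower and 8 higher genes passed both. These 6 libraries were all the untreated NCI-N87 libraries among 132 libraries of 44 conditions, chosen by their labels for cell line, treatment and time. Cells of every group but those of Hs746T were grown in RPMI with 10% FCS, and all in separate dishes. They were seeded on the day before and had their medium changed shortly before time 0. Time since the medium change and time since seeding can therefore not be told apart. No agent was added to the 6 dishes. Polyadenylated RNA was sequenced and the values are read counts per gene. The comparison asks how far expression moved between both sampling times when nothing was added. For comparison, the same time difference was taken in NCI-N87 cells given trastuzumab, an antibody to the ERBB2 receptor. NCI-N87 cells given afatinib, a kinase inhibitor, alone or with trastuzumab were used as well. The time difference was also taken in untreated cells of the gastric cancer lines MKN7, MKN1 and Hs746T (3 libraries for each line and time). Hs746T cells were grown in DMEM with 10% FCS, so line and medium cannot be told apart there.

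The ER folds secreted and membrane proteins with the help of chaperones such as HSPA5 (BiP). When unfolded proteins build up, the sensors ATF6, IRE1 and PERK switch on the unfolded protein response, which raises chaperones and the degradation machinery. A related response in the cytosol, driven by HSF1, raises HSP70 and HSP90 genes, NRF2 raises enzymes that make glutathione and clear oxidants, and ATF4 raises genes of amino acid supply.

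The 6 libraries held 47085013 to 55120097 counts, and 98.3 to 98.5% of these lay on protein-coding genes. At this depth 3 counts, taken as the limit of detection, correspond to 0.0587 to 0.0687 CPM (counts per 1000000 counts of the TMM-scaled library), a limit that covers counting error only. Of 65217 identifiers per library, 19078 had enough counts to be tested. The epithelial marker genes summed to 20940 to 23120 CPM at 4 h and 20830 to 24100 CPM at 24 h, with all 10 of 10 markers tested, and KRT8 alone had means of 10670 and 11120 CPM. Fibroblast markers summed to 14.2 to 17.2 CPM at 4 h and 13.4 to 19.8 CPM at 24 h, of which COL1A1 made up most. Leukocyte markers summed to 5.12 to 6.32 and 5.40 to 6.22 CPM (CD3D, MS4A1 and CD68 were listed at 0), and endothelial markers to 2.86 to 3.84 and 2.41 to 2.81 CPM. Genes that most cells use were also listed at 0 in these files (XBP1, the ribosomal protein genes RPL15 and RPL32, and all 37 mitochondrial identifiers), so a listed 0 may not mean an absent transcript. None of the 24 marker genes tested passed the test between both times. ERBB2 itself had 12330, 11650 and 11530 CPM at 4 h and 15040, 15570 and 13440 CPM at 24 h (log2FC 0.31, SE 0.13, edgeR adjusted p = 0.433). In a principal component analysis, the first component (33.2% of the variance) ordered the libraries by replicate number, and the second (20.8%) separated 4 h (10.1 to 33.8) from 24 h (-28.8 to -13.3).

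In all, 9 genes were regulated, meaning that the Benjamini-Hochberg adjusted p of edgeR's quasi-likelihood test was below 0.05 and the log2 fold change (log2FC, 24 h against 4 h) exceeded 1 in size. All 9 were lower at 24 h (0.0472% of the genes tested) and none was higher. With the adjusted p alone, 36 genes were lower (0.189%) and 15 were higher (0.0786%), and 1793 genes had an unadjusted p below 0.05. The median log2FC over all genes was 0.01. Same-numbered libraries deviated together, and with the replicate number as a block the calls rose to 397 lower (2.08%) and 428 higher genes (2.24%), 42 and 8 of them regulated. All 51 genes called without the block were also called with it. The block fitted to only the 6 libraries called 29 lower and 6 higher genes, 13 of them regulated.

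The calls without the block rested on the libraries and on the fit. When only the 6 untreated libraries entered edgeR's fit, no gene passed (smallest adjusted p 0.0624, 1431 genes with an unadjusted p below 0.05), whereas DESeq2 on the same 6 libraries gave 17 regulated genes. Without replicate 1 or without replicate 2 at both times, edgeR called no gene (1750 and 740 genes with an unadjusted p below 0.05) and DESeq2 gave 25 and 5 regulated genes. Replicate 2 was the highest 4 h library for 34 of the 36 lower genes and the lowest 4 h library for 11 of the 15 higher genes. Without this 1 library 3 genes were regulated, namely HERPUD1, DNAJB9 and LINC00707, and without the 24 h library of replicate 2 there were also 3. There were 15 without the 4 h library of replicate 1, 16 without that of replicate 3 and 5 without the 24 h library of replicate 1. The direction of each of the 22 single genes recomputed was the same in every one of 17 alternatives. These genes had been picked as called, with no overlap between their 4 h and 24 h libraries. A change of sign was therefore hardly possible, and the unchanged direction is no measure of firmness.

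The sequences before the start of 2 genes that carried the main result are shown here because both hold a known ER stress response element. The first element reads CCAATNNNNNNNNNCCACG and the second ATTGGNCCACG, where N is any base, and both were searched on either strand in RefSeq promoter windows (GRCh38.p14, 250 bases before to 50 bases after a start). Capitals mark the match, and the 250 bases before the start are given 5′ to 3′ in the direction of the gene. The HSPA5 window lies at chr9:125241344-125241593 on the minus strand and its match starts 66 bases before the start, and the HERPUD1 window lies at chr16:56931892-56932141 on the plus strand with its match 117 bases before the start.
HSPA5: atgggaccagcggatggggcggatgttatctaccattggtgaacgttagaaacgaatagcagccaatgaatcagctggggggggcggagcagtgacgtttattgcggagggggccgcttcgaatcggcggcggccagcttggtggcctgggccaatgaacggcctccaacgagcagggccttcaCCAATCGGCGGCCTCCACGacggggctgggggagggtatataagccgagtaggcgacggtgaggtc
HERPUD1: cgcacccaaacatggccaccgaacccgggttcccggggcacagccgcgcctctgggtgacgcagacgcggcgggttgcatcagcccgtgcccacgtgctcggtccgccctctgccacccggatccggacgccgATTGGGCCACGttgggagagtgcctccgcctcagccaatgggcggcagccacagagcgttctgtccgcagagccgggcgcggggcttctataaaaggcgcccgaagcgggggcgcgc

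HERPUD1, which encodes a membrane protein of ER-associated degradation, showed the firmest difference. The gene (ENSG00000051108, chr16:56932048-56944863, hg38) had 145, 286 and 168 CPM at 4 h and 54.5, 56.1 and 66.7 CPM at 24 h in replicates 1, 2 and 3. The 24 h libraries lay close together and far below each 4 h library. The log2FC was -1.76 (SE 0.216, n = 3 libraries per time, edgeR adjusted p = 0.00108), and it was -1.43 without the 4 h library of replicate 2 (edgeR adjusted p = 0.00418; over all alternatives 1.5e-12 to 0.124).

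HSPA5, a major ER chaperone and the regulator of the ER stress sensors, had 2036, 3908 and 2344 CPM at 4 h and 1199, 1169 and 1324 CPM at 24 h. Replicate 2 stood out at 4 h and was the lowest at 24 h. The gene (ENSG00000044574, chr9:125234853-125241330) had a log2FC of -1.17 (SE 0.226, edgeR adjusted p = 0.0261), or -0.86 with an adjusted p of 0.233 in edgeR without the 4 h library of replicate 2. DNAJB9 (ENSG00000128590, chr7:108569568-108574850), an ER-resident J-protein that works with HSPA5, had 15.5, 28.98 and 16.7 CPM at 4 h and 6.81, 7.58 and 7.68 CPM at 24 h. Its log2FC was -1.47 (SE 0.211, edgeR adjusted p = 0.00408) and -1.16 without that library (edgeR adjusted p = 0.0264).

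**Figure D1:**
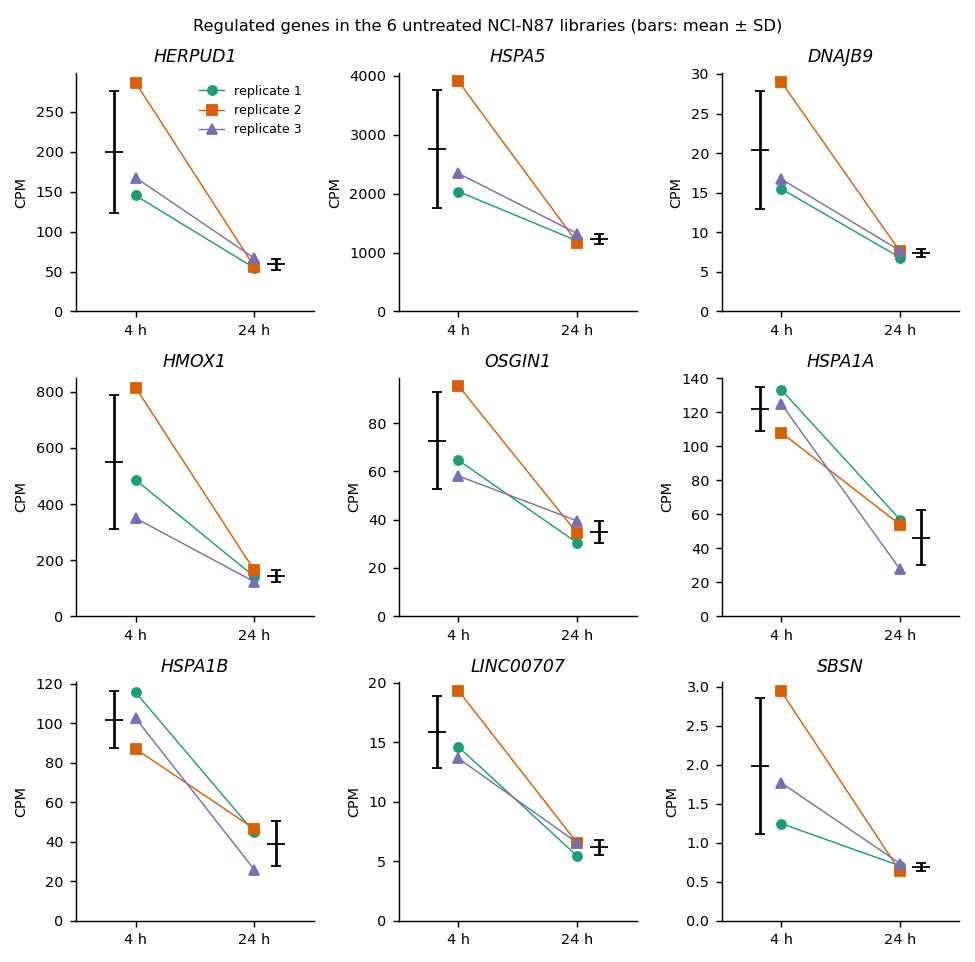
Normalised counts (CPM, y axis, linear from 0) of the 9 regulated genes at 4 h and 24 h (x axis) in the 3 replicates of untreated NCI-N87 cells; lines join libraries of the same number and black bars give the mean ± SD. In each panel the 24 h libraries lie below the 4 h libraries, and replicate 2 is the highest 4 h library for all genes but HSPA1A and HSPA1B.

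The ER chaperone and unfolded protein response list held 19 genes that could be tested, and XBP1, its other member, was listed at 0 in all 6 libraries. Of the 19, 5 were lower at 24 h and none was higher with the adjusted p alone (3 of them regulated), against 0.189% of all genes for lower ones. This list, like the other lists here, was chosen with earlier results of these data known, so its share was not set independently of the values. The median log2FC was -0.57, beside 0.01 over all genes. For 16 of the 19 every 24 h library lay below every 4 h library, which held for 6.1% of all genes tested. With the block 15 of the 19 were called lower (2.08% of all genes), and 3 with the block and only the 6 libraries. The other called members were SDF2L1, a partner of ER J-proteins, with 41.8, 72.0 and 62.4 CPM at 4 h and 35.6, 29.9 and 32.3 CPM at 24 h (log2FC -0.85, edgeR adjusted p = 0.0254), and CRELD2, a secreted ER stress protein, with 85.3, 146 and 109 CPM falling to 70.0, 62.4 and 60.0 CPM (log2FC -0.82, edgeR adjusted p = 0.0302).

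The remaining 14 members did not pass without the block. Those with the largest log2FC were the chaperone HYOU1 (252.6, 406.8 and 234.4 CPM at 4 h, 175.5, 170.2 and 177.2 CPM at 24 h, log2FC -0.77), the secreted factor MANF (log2FC -0.69) and SEL1L and SYVN1, both of the degradation ligase (log2FC -0.61 and -0.60). The folding factors HSP90B1, CALR and PDIA4 had log2FC values of -0.49, -0.51 and -0.57, and all 7 of these genes were called lower with the block. CANX, PDIA6, EDEM1 and the sensor ATF6 lay between -0.29 and -0.07 and passed neither test. Replicate 2 was the highest 4 h library for all 19 genes, and the list summed to 8197, 12380 and 8961 CPM at 4 h and 6199, 6168 and 6703 CPM at 24 h. In edgeR's fit 2 members were called without the 4 h library of replicate 2, 2 without any 1 of the 24 h libraries, and 8 without the 4 h library of replicate 1. FICD, which modifies HSPA5 and is on none of the lists, was also lower (log2FC -0.72, edgeR adjusted p = 0.0146). FICD, like the other genes outside the lists named here, was chosen after its values were seen.

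The first ER stress response element was held by the windows of 25 of 27305 genes (0.0916%), by 6 of the 18 list members with a window (33.3%) and by 3 of the 29 lower genes with a window (10.3%: CRELD2, FICD and HSPA5). The second was held by 19 of all genes (0.0696%), 3 list members (HERPUD1, HYOU1 and SDF2L1) and 2 lower genes. These 2 elements and the 2 named below were chosen after the values were seen. They were picked as known elements of ER stress, heat shock and antioxidant genes, the kinds of genes on these lists. Their shares in the lists were therefore not set independently of the members, and no enrichment is concluded from them. The next lines show the first element in 2 further genes that were called lower and in 2 further folding factors that were not called without the block, each in a stretch of 80 bases of GRCh38.p14 around the match. They are CRELD2 (chr22:49918523-49918602, with the match on the opposite strand), FICD (chr12:108515092-108515171), HSP90B1 (chr12:103930185-103930264, 1 of 2 matches) and PDIA6 (chr2:10812823-10812902, minus strand).
CRELD2: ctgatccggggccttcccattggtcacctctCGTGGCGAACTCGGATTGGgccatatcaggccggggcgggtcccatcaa
FICD: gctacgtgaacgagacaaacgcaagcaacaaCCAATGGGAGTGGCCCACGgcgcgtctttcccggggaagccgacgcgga
HSP90B1: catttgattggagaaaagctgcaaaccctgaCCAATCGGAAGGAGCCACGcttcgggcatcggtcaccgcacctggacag
PDIA6: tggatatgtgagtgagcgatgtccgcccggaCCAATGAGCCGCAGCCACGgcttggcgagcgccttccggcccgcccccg
The element was thus present both in genes that passed and in genes that did not, and it is given as a description of the letters in these windows.

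Cytosolic heat shock genes were the second group. HSPA1A and HSPA1B, the stress-inducible HSP70 genes on chromosome 6, are nearly identical, so the reads of one could be counted for the other and their values are best read together. HSPA1A (ENSG00000204389, chr6:31815464-31817946) had 133, 108 and 125 CPM at 4 h and 56.8, 53.8 and 27.5 CPM at 24 h (log2FC -1.40, SE 0.291, edgeR adjusted p = 0.0379). HSPA1B (ENSG00000204388, chr6:31827735-31830255) had 116, 87.03 and 103 CPM at 4 h and 44.8, 46.5 and 25.9 CPM at 24 h (log2FC -1.38, SE 0.27, edgeR adjusted p = 0.0265). For both, replicate 2 was the lowest library at 4 h, unlike the ER genes, and replicate 3 the lowest at 24 h.

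HSP90AA1, the inducible cytosolic HSP90, was the third called member of the list, with 2139, 2269 and 2139 CPM at 4 h and 1535, 1547 and 1652 CPM at 24 h (log2FC -0.47, SE 0.0799, edgeR adjusted p = 0.0146). In total 3 of 15 members tested were lower (2 regulated; 0.189% of all genes) and none was higher, the median log2FC was -0.39, and for 9 of them all 24 h libraries lay below all 4 h libraries (6.1% of all genes). HSPA8, the constitutive HSP70, had 3978, 3912 and 4176 CPM at 4 h and 3061, 3018 and 2490 CPM at 24 h and missed the threshold (log2FC -0.49, edgeR adjusted p = 0.103), as did the co-chaperones DNAJB1, DNAJA1 and BAG3 (log2FC -0.42, -0.40 and -0.45). With the block 9 members were called lower (2.08% of all genes), these 4 among them. The small heat shock gene HSPB1 (log2FC -0.05) and the factor HSF1 (0.04) were called in neither fit. The list summed to 13980 to 14860 CPM at 4 h and 10900 to 11350 CPM at 24 h. In edgeR's fit no member was called without any 1 of the 4 h library of replicate 2, the 24 h library of replicate 1 or the 24 h library of replicate 2, and 1 was called without the 4 h library of replicate 1 or the 24 h library of replicate 3. DNAJA4, a further J-protein outside the list, was lower with all libraries (log2FC -0.51, edgeR adjusted p = 0.0376). A heat shock element (GAANNTTCNNGAA, either strand) was held by the windows of 5 of 14 list members (35.7%) and 0.608% of all genes. It was picked as a known element of heat shock genes, so its share in this list is no independent result. The element is shown here for HSP90AA1 (chr14:102087087-102087166, minus strand, match on the opposite strand).
HSP90AA1: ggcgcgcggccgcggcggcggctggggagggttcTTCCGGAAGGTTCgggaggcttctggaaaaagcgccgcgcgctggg

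HMOX1, the heme oxygenase that NRF2 and heme induce, had the largest fall of all regulated genes. The gene (ENSG00000100292, chr22:35380361-35394214) had 486, 816 and 349 CPM at 4 h and 141, 164 and 123 CPM at 24 h. The log2FC was -1.95 (SE 0.316, edgeR adjusted p = 0.0118), and -1.58 without the 4 h library of replicate 2 (edgeR adjusted p = 0.114; over all alternatives 3.8e-07 to 0.223). OSGIN1 (ENSG00000140961, chr16:83948282-83966332), an oxidative stress gene, had 64.6, 95.5 and 58.1 CPM at 4 h and 30.3, 34.3 and 39.5 CPM at 24 h (log2FC -1.07, SE 0.193, edgeR adjusted p = 0.0219). GCLC and GCLM, the subunits of the enzyme that limits glutathione synthesis, moved together. GCLC had 201, 226 and 152 CPM falling to 98.8, 117 and 109 CPM (log2FC -0.83, edgeR adjusted p = 0.0216), and GCLM had 350, 439 and 306 CPM falling to 188, 226 and 232 CPM (log2FC -0.76, edgeR adjusted p = 0.0498).

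These 4 were the called members among 19 NRF2 target genes tested (0.189% of all genes), none was higher, and the list's median log2FC was -0.19. TXNRD1 (1646, 2237 and 1447 CPM at 4 h, 1009, 1212 and 1161 CPM at 24 h, log2FC -0.66) and the cystine carrier SLC7A11 (log2FC -0.65) did not pass without the block and were called lower with it, when 9 members were called (2.08% of all genes). NQO1, often used as a readout of NRF2, had 1413, 1558 and 1408 CPM at 4 h and 1663, 1523 and 1340 CPM at 24 h (log2FC 0.05). The ferritin genes FTH1 and FTL (log2FC -0.04 and 0.02) and the pentose phosphate genes PGD, TKT and TALDO1 (-0.09 to -0.06) were called in neither fit. No list member was called in edgeR's fit without the 4 h library or without the 24 h library of replicate 2, and 1 was called without the 24 h library of replicate 1. The core antioxidant response element (TGACNNNGC, either strand) was held by 16.1% of all genes and by 4 of 14 list members (28.6%), GCLM among the called ones (chr1:93909431-93909510, minus strand, match on the opposite strand).
GCLM: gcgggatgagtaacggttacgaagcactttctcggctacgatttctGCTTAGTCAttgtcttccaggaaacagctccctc

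**Figure D2:**
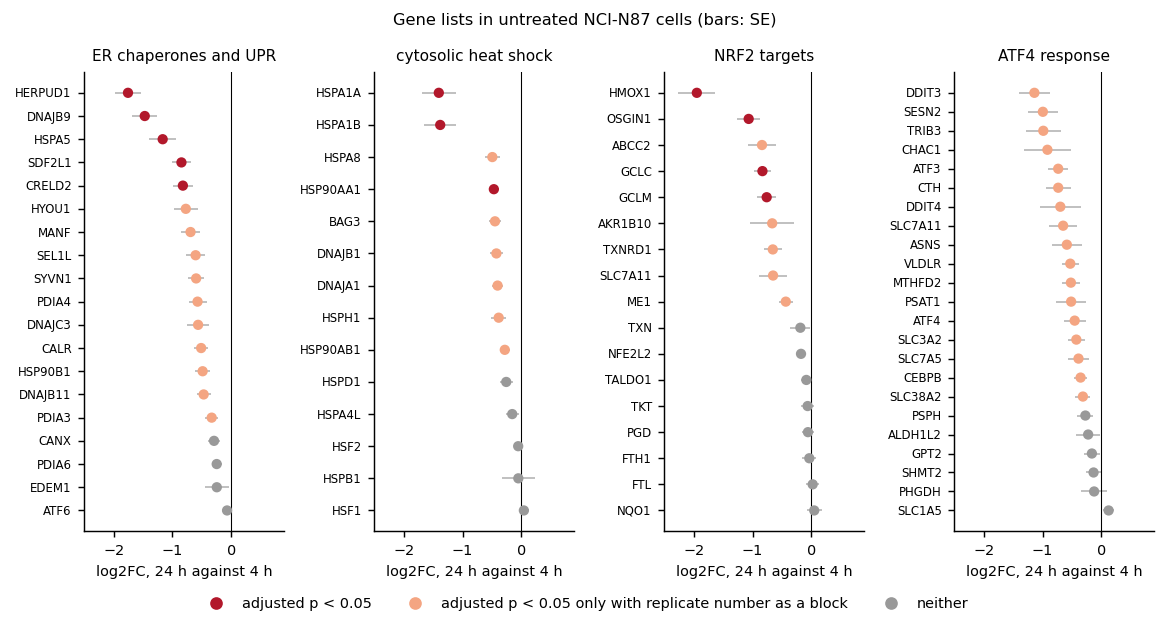
The log2FC of 24 h against 4 h (x axis, bars: SE) in untreated NCI-N87 cells for members of 4 gene lists with a mean log2 CPM above 0 (19 of 19, 14 of 15, 17 of 19 and 23 of 26 tested members drawn from left to right); colour gives the edgeR call. All 19 ER genes lie left of 0, and members of the ATF4 list pass only with the block.

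ATF4 and amino acid response genes leaned the same way without a call. None of 26 members tested passed without the block, the median log2FC was -0.52, and 17 were called lower with it (2.08% of all genes). The block with only the 6 libraries called 2. DDIT3, a factor downstream of ATF4, had 6.56, 12.8 and 8.11 CPM at 4 h and 3.47, 4.12 and 4.90 CPM at 24 h (log2FC -1.14, edgeR adjusted p = 0.0808, or 0.00225 with the block). TRIB3 had a log2FC of -0.99 (edgeR adjusted p = 0.183, or 0.0044 with the block), and the asparagine synthetase gene ASNS one of -0.59 (edgeR adjusted p = 0.463, or 0.0044 with the block). PPP1R15A, which encodes the phosphatase subunit that reverses the PERK signal and is on none of the lists, was lower with 92.7, 142 and 106 CPM at 4 h and 71.5, 71.2 and 74.5 CPM at 24 h (log2FC -0.65, edgeR adjusted p = 0.03). DESeq2 called 5 members of the list lower.

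LINC00707, a long non-coding RNA, and SBSN were the remaining regulated genes. LINC00707 (ENSG00000238266, chr10:6779549-6879450) had 14.6, 19.3 and 13.6 CPM at 4 h and 5.44, 6.54 and 6.55 CPM at 24 h (log2FC -1.36, SE 0.177, edgeR adjusted p = 0.00137). SBSN, a suprabasal epithelial gene at a low level, had 1.25, 2.94 and 1.77 CPM at 4 h and 0.703, 0.632 and 0.733 CPM at 24 h (log2FC -1.52, edgeR adjusted p = 0.0254). The keratin gene KRT16 (53.6, 90.0 and 51.6 CPM at 4 h, 39.5, 27.8 and 30.8 CPM at 24 h, log2FC -0.99, edgeR adjusted p = 0.0265) and SFN (507, 789 and 505 CPM at 4 h, 318, 306 and 336 CPM at 24 h, log2FC -0.91, edgeR adjusted p = 0.0254) were called with smaller changes.

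Of 11 EGFR ligands and neuregulins tested, 2 were lower at 24 h (0.189% of all genes) and none was higher (0.0786%). EREG had 69.8, 94.5 and 53.4 CPM at 4 h and 39.7, 42.7 and 41.0 CPM at 24 h (log2FC -0.82, edgeR adjusted p = 0.0261), and AREG had 23.3, 36.0 and 24.3 CPM falling to 17.3, 18.02 and 15.4 CPM (log2FC -0.72, edgeR adjusted p = 0.031). TGFA (log2FC -0.10), BTC (0.05) and HBEGF (-0.36) did not pass. Single members of other lists were lower too. They were the CDK inhibitor CDKN1A (43.1, 59.4 and 36.3 CPM at 4 h, 29.2, 27.6 and 27.2 CPM at 24 h, log2FC -0.72), tissue factor F3 (183, 205 and 156 CPM at 4 h, 111, 108 and 104 CPM at 24 h, log2FC -0.75), the interferon-stimulated RSAD2 (log2FC -0.77) and the autophagy gene GABARAPL1 (log2FC -0.53). None of these 4 was accompanied by another called member of its list.

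The 15 higher genes changed by 0.42 to 0.89 on the log2 scale, and 2 of them were on a list. SMAD6, an inhibitor of BMP signalling, had 6.41, 5.40 and 7.38 CPM at 4 h and 11.01, 13.2 and 10.04 CPM at 24 h (log2FC 0.84, edgeR adjusted p = 0.0118). DHRS3, a retinaldehyde reductase, had 55.9, 49.9 and 54.3 CPM at 4 h and 97.5, 91.8 and 78.2 CPM at 24 h (log2FC 0.74, edgeR adjusted p = 0.0219). Outside the lists, the growth factor gene FGF20 rose most, from 9.53, 10.8 and 10.8 CPM to 19.9, 19.3 and 18.3 CPM (log2FC 0.89, edgeR adjusted p = 0.0146). The laminin chain LAMB1 (60.4, 55.7 and 58.7 CPM at 4 h, 78.8, 89.7 and 78.3 CPM at 24 h, log2FC 0.50), the basement membrane gene FRAS1 (0.44) and the Wnt cofactor BCL9 (0.42) rose less. For all 15 genes every 24 h library lay above every 4 h library, which held for 7.12% of all genes tested, and for all 36 lower genes every 24 h library lay below. Both sets had been called on these same 6 libraries, so this separation follows largely from the selection and is no further result. No gene was called higher without either library of replicate 2.

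Most gene lists held no called gene: 34 of 45 had none in either direction. The circadian clock list (23 tested) had a median log2FC of 0.03, and PER2, BMAL1 and NR1D1 lay at 0.02, -0.05 and 0.11. Immediate early genes (22 tested) had a median of -0.19, and within them replicate 2 was high at both times for EGR1 (107.5, 320.5 and 113.1 CPM at 4 h, 134.7, 376.9 and 170.0 CPM at 24 h) and FOS (20.9, 50.01 and 25.3 CPM, then 28.3, 60.9 and 19.6 CPM). Of 55 G2/M genes tested none was called in edgeR, but 53 lay below 0, the median log2FC was -0.18 and 13 were called lower with the block (2.08% of all genes) and 0 with the block and only the 6 libraries, among the 13 KIF2C (log2FC -0.31) and NUSAP1 (-0.30). The 45 S phase genes had a median of 0.03 and none was called in either fit. Cytosolic ribosomal protein genes (58 tested, median 0.06), respiratory chain genes (31 tested, 0.01), ribosome biogenesis genes (35 tested, -0.04) and gastric mucins and trefoil factors (15 tested, 0.06) held no called gene. For Wnt target genes (15 tested, median 0.30) 5 were called higher with the block (2.24% of all genes), including AXIN2 (log2FC 0.40), and DKK1, a Wnt inhibitor, was called lower (log2FC -0.69).

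Of the motifs chosen with the design, the E-box CACGTG was held by the windows of 2 of the 29 lower genes (6.90%) and 8.77% of all genes. The AP-1 site TGACTCA was held by 3 lower genes (10.3%) and 6.05% of all genes, and the aryl hydrocarbon response core GCGTG by 18 lower genes (62.1%) and 40.6% of all genes. GCGTG is short and rich in CpG, and base composition was not matched.

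The 24 h against 4 h comparison was also made in NCI-N87 cells given trastuzumab, whose libraries share no sample with the untreated ones. Both sets came from 1 fit and carry the same replicate numbers, so this is not an independent repeat. Here 431 genes were lower (2.26%) and 467 were higher (2.45%) with the adjusted p alone, and 149 were regulated. All 36 genes that were lower in untreated cells were also lower by sign under trastuzumab (69.4% of all genes had 1 sign in both), 35 of them with an edgeR adjusted p below 0.05. All 15 higher genes were higher by sign, 13 of them with an adjusted p below 0.05. HERPUD1 had 169, 266 and 167 CPM at 4 h and 58.8, 55.7 and 78.9 CPM at 24 h under trastuzumab (log2FC -1.64, edgeR adjusted p = 0.00016), and HMOX1 had 646, 813 and 383 CPM at 4 h and 151, 159 and 142 CPM at 24 h (log2FC -2.03, edgeR adjusted p = 0.000877). As in untreated cells, replicate 2 was the highest 4 h library for 29 of the 36 genes.

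The difference between the 2 time effects was tested in the same fit. No gene passed in edgeR (596 genes with an unadjusted p below 0.05), DESeq2 called 3 genes and the block 12, 4 of them past a log2 difference of 1. The largest gaps among the 51 genes were those of AREG (log2FC -1.67 under trastuzumab, -0.72 untreated), EREG (-1.58 and -0.82) and F3 (-1.51 and -0.75). None of the 3 passed that test without the block, and AREG passed with it (edgeR adjusted p = 0.0254). The ER list had 13 of 19 members lower under trastuzumab (median log2FC -0.60), the heat shock list 9 of 15 and the NRF2 list 7 of 19. Of all genes 2.26% were lower in this comparison, against 0.189% in untreated cells, so these counts are not comparable with the untreated ones. With afatinib, an inhibitor of EGFR and ERBB2 kinases, and with both drugs together, all 9 regulated genes again had every 24 h library below every 4 h library, as they did under trastuzumab. This held for 9.73% of all genes under trastuzumab, 31.2% with afatinib and 30.2% with both drugs. HERPUD1 averaged 187 ± 27.6 CPM (SD, n = 3) at 4 h and 79.2 ± 11.2 CPM at 24 h with afatinib, and 198 ± 16.5 CPM and 74.4 ± 8.87 CPM with both drugs.

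**Figure D3:**
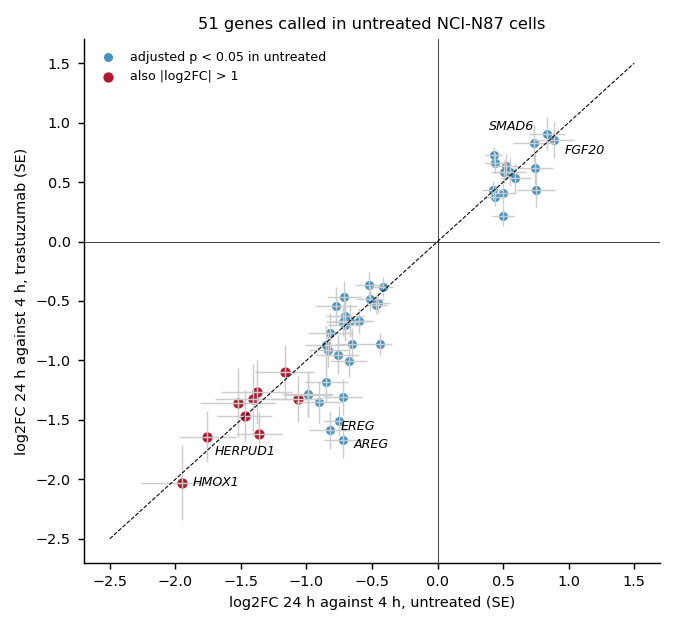
The log2FC of 24 h against 4 h in untreated (x axis) and trastuzumab-treated (y axis) NCI-N87 cells for the 51 genes called in untreated cells, with SE bars and the line of equal change dashed. The 9 regulated genes (red) lie near the line, and AREG, EREG and F3 lie below it.

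The other untreated lines showed whether these changes were shared. In 1 fit of all 24 untreated libraries (20560 genes tested), NCI-N87 had 31 lower (0.151%) and 0 higher genes by edgeR (1518 genes with an unadjusted p below 0.05). Of the 36 lower and 15 higher genes above, 17 and 0 passed in this fit. MKN7 had 439 lower (2.14%) and 525 higher genes (2.55%), MKN1 2376 lower (11.6%) and 2552 higher genes (12.4%), and Hs746T 45 lower (0.219%) and 25 higher genes (0.122%). The test of the difference itself called 23 genes between NCI-N87 and MKN7 (0.112%), 1506 between NCI-N87 and MKN1 (7.32%) and 3 between NCI-N87 and Hs746T (0.0146%). By sign, 27, 29 and 29 of the 36 lower genes were also lower in MKN7, MKN1 and Hs746T, a share not computed for all genes. With an edgeR adjusted p below 0.05, 4, 14 and 0 were lower there and 0, 3 and 0 were higher. Of the 15 higher genes 13, 13 and 9 shared the sign, and 4, 6 and 0 were called. Of 19 ER list members 0, 6 and 0 were called lower in these lines, of 15 heat shock members 4, 9 and 0. Of 25 ATF4 list members, 8 were called higher and 2 lower in MKN1. Of the 36 genes lower in NCI-N87, 2, 12 and 3 differed from MKN7, MKN1 and Hs746T, and of the 15 higher genes 0, 1 and 0 did. With the block the difference passed for 19, 19 and 17 of the 36, and for 5.13%, 18.4% and 1.19% of all genes. Without the 4 h NCI-N87 library of replicate 2, the differences from MKN7 past a log2 difference of 1 went from 13 to 1.

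Without the block, HERPUD1 was the only gene that differed from all 3 lines. With it, HSPA5, HMOX1, DNAJB9 and HSPA1A were among the genes that also did. HERPUD1 averaged 77.4 ± 5.55 CPM at 4 h and 74.3 ± 6.60 CPM at 24 h in MKN7, 25.6 ± 1.73 and 29.7 ± 2.28 CPM in MKN1, and 39.6 ± 5.09 and 34.6 ± 1.08 CPM in Hs746T (SD, n = 3 libraries each). NCI-N87 cells thus stood above every other line at 4 h and within their range at 24 h, where CPM values of NCI-N87 and of the other lines were scaled in separate fits. The log2FC in NCI-N87 minus that in MKN7 was -1.72 (edgeR adjusted p = 0.00378), minus that in MKN1 -1.99 (edgeR adjusted p = 9.6e-05) and minus that in Hs746T -1.58 (edgeR adjusted p = 0.00758). These calls needed the fit of all lines for MKN7 and Hs746T. With only NCI-N87 and MKN7, or only NCI-N87 and Hs746T, no gene differed (smallest edgeR adjusted p 0.0523 and 0.07). HSPA5 differed from MKN7 (-1.08, edgeR adjusted p = 0.0418) and MKN1 (-0.79, edgeR adjusted p = 0.0247), and from Hs746T only with the block (-1.07, edgeR adjusted p = 0.0051; without it -1.14 and 0.0609).

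HMOX1, DNAJB9 and HSPA1A differed from MKN1 (-2.40, -1.28 and -0.98, edgeR adjusted p = 0.00202, 0.00532 and 0.0491). HSPA1B, best read together with HSPA1A, missed the threshold there (-0.72, edgeR adjusted p = 0.0731). In Hs746T at 4 h, 9.1 CPM were counted for HSPA1A and 91.6 CPM for HSPA1B. The values therefore do not show a line difference of 1 gene of this pair. In MKN7 and Hs746T, HMOX1 had a log2FC of -0.96 in each and passed in neither, and its differences from these lines passed only with the block (-0.92 and -0.94, edgeR adjusted p = 0.00425 and 0.00645). DNAJB9 and HSPA1A likewise differed from MKN7 (edgeR adjusted p = 0.0071 and 0.0237) and Hs746T (edgeR adjusted p = 0.0015 and 0.0241) only with the block. LINC00707 differed from Hs746T (-1.70, edgeR adjusted p = 0.034) and, only with the block, from MKN7 (-1.34, edgeR adjusted p = 0.0018), and it fell in MKN1 as in NCI-N87 (log2FC -1.31). OSGIN1, GCLM and HSPA1B had negative log2FC values in all 4 lines: OSGIN1 -0.71, -0.50 and -0.70, GCLM -0.59, -0.57 and -0.63, and HSPA1B -0.81, -0.68 and -0.33 in MKN7, MKN1 and Hs746T. All 3 passed in MKN7 and MKN1 and in Hs746T none did, and without the block no difference from NCI-N87 passed for them (with it, HSPA1B differed from MKN1 and Hs746T and OSGIN1 from MKN1).

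**Figure D4:**
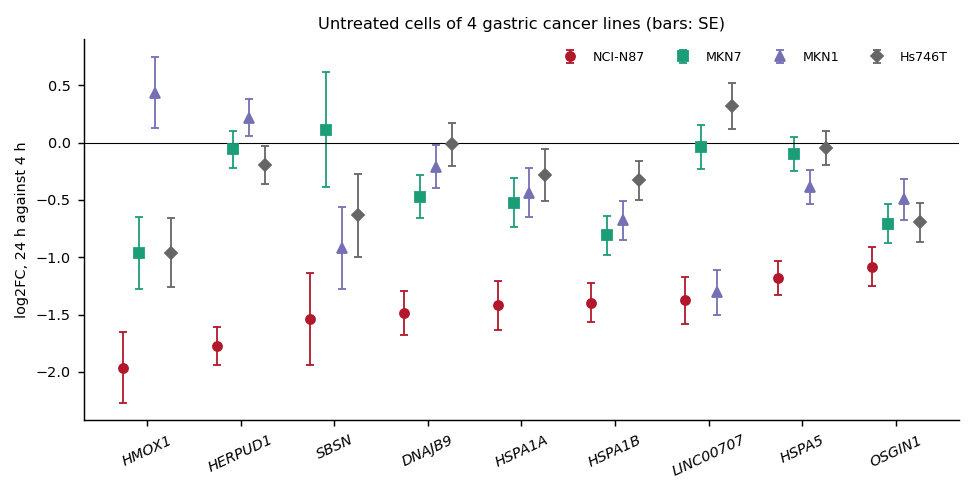
The log2FC of 24 h against 4 h (y axis, bars: SE) of the 9 regulated genes in untreated cells of the 4 lines, from 1 fit of all 24 untreated libraries, in which the NCI-N87 values can differ slightly from those of the fit of that line alone. For HERPUD1 the other lines lie near 0, whereas for OSGIN1 all 4 lines lie below 0.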

How the data were processed

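The deposited files held raw read counts per Ensembl gene identifier, which the authors made from paired-end, directionally prepared polyadenylated RNA libraries. Trim Galore and STAR and the build hg38 are named in the submitters' processing notes, and the counting tool, its annotation and its strand setting are not given in the sources used here. Reads of overlapping or antisense genes can therefore not be told apart. Of 132 libraries 42 were used (25832557 to 63414173 counts). Symbols came from a gene name table and places from GENCODE 29 (8404 identifiers, 0.0423% of the counts of the 6 libraries, were not in it).

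The tests used edgeR 4.0.16 under R 4.3.3: genes were kept by filterByExpr (minimum count 10, minimum total 15), libraries were scaled by TMM, and the quasi-likelihood test was adjusted by Benjamini-Hochberg. All 24 NCI-N87 libraries entered 1 fit with a mean per treatment and time, and all 24 untreated libraries a second fit. CPM values are TMM-scaled. Levels are not divided by gene length. Alternatives used DESeq2 1.42.0, other scalings and filters, subsets of libraries and the replicate number as a block. The deviations of same-numbered libraries from their group means correlated at 0.27, 0.14 and 0.23, so the numbers pair the samples. The design text calls the replicates biological triplicates, and what a number stands for is not given in the sources used here. No 2 libraries agreed within sampling noise. Genes were named if regulated, above 1 in mean log2 CPM and moved 1 way in all 3 pairs, besides list members, and the genes differing most between lines. The members and the 45 lists were chosen with earlier results of these data known. The fits were run on simulated counts drawn without a replicate effect. That run cannot speak to the pairing of same-numbered libraries, and its outcome is not given here. Figures used Python and matplotlib. Some items are not reported here.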

Additional observations from a re-analysis of the deposited data

Results flagged for a closer look

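The change over time differed between NCI-N87 and another untreated line, by edgeR's test of the difference (adjusted p below 0.05, 3 libraries per line and time), for these genes called in NCI-N87 cells. Each value is the log2FC in NCI-N87 minus that in the other line. Against MKN7 it was -1.72 for HERPUD1 and -1.08 for HSPA5. Against MKN1 it was -2.40 for HMOX1, -1.99 for HERPUD1, -1.64 for ABHD4, -1.49 for AL121944.1, -1.28 for DNAJB9, -1.26 for GABARAPL1, -0.98 for HSPA1A, -0.79 for HSPA5, -0.75 for FBXO30, -0.74 for TRIM16L, -0.41 for LYSMD3, 0.66 for FRAS1 and 1.41 for ETS1. In the fit of NCI-N87 alone ABHD4, GABARAPL1, AL121944.1 (an antisense transcript) and ETS1 had log2FC values of -0.71, -0.53, -0.71 and -0.44, and in MKN1 they had values of 0.91, 0.72, 0.76 and -1.86. These 4, as well as FBXO30 and FRAS1, passed for NCI-N87 in that fit and not in the fit of the 4 lines. TRIM16L shares sequence with TRIM16, so its reads are uncertain, as are those of HSPA1A, which is nearly identical to HSPA1B. Against Hs746T it was -1.70 for LINC00707, -1.58 for HERPUD1 and -1.43 for SFN. In Hs746T, replicate 2 had its 4 h and its 24 h library in different series of sample numbers.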

How the results depend on the processing

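With 3 libraries per time, the count of calls depended on the fit. The 9 regulated genes became 0 with only the 6 libraries compared, 19 with DESeq2, 19 with no filter, 50 with the replicate block and 0 to 16 when a replicate or library was left out. The 36 lower genes became 0, 153, 76 and 397 in those settings, 23 with library size alone and 0 to 50 with libraries left out, and the 15 higher genes 0 with only the 6 libraries, 109 with DESeq2, 428 with the block, 6 with the block and only the 6 libraries (an alternative added after seeing the data) and 0 to 30. The called ER genes (5) became 0, 13, 11, 15 and 3 with the 6 libraries, DESeq2, no filter, the block, and the block with the 6 libraries, and 0 to 8. The called heat shock genes (3) became 0, 8, 5 and 9, 5 with at least 10 counts in every library, and 0 to 2. The NRF2 genes (4) became 0 with the 6 libraries, 7 with DESeq2, 9 with the block and 0 to 5. The ATF4 genes (0) became 5, 4, 17 and 2 with DESeq2, no filter, the block, and the block with the 6 libraries, and 0 to 1, and the G2/M genes (0) became 2 with DESeq2, 13 with the block and 0 to 0 with libraries left out. Regulated genes under trastuzumab (149) became 64 with only its 6 libraries, 275 with the block and 26 to 142. Differences from MKN7 (13) became 0 with only the 2 lines (2327 genes with an unadjusted p below 0.05 in edgeR), 87 with DESeq2, 42 with no filter, 28 with at least 10 counts, 237 with the block and 0 to 16. Differences from MKN1 (607) became 388 with at least 10 counts, 1078 with the block and 17 to 632, and those from Hs746T (3) became 0 with only the 2 lines (1332 with an unadjusted p below 0.05), 28 with DESeq2, 11 without a filter, 5 under each of the stricter filter and scaling by library size, 60 with the block, and 0 to 6. Why the settings differ was not tested. Of 22 single genes none changed direction, which was nearly fixed by their choice as called genes without overlap between both times. All 22 kept their call with DESeq2, its size factors in edgeR, both filters and the block, 16 with library size alone, 13 with the block and only the 6 libraries, 0 without replicate 1 or 2, 12 without replicate 3, and 3 to 19 without a single library. Depth sets a floor of 0.0587 to 0.0687 CPM (3 counts) in the 6 libraries, below which no change could be seen.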
